A study of Mus musculus with 2 samples.

Results

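Aerocytes, or aCap cells, are the large, thin endothelial cells (ECs) of the alveolar capillaries that lie against the gas exchange surface, and they share this capillary bed with general capillary (gCap) cells. aCap cells are known for carbonic anhydrase 4 and the endothelin receptor EDNRB and secrete apelin, whose receptor marks gCap cells. gCap cells are the capillary cells that divide and serve as progenitors after lung injury, whereas aCap cells rarely divide.

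The study reared C57BL/6 mice (C57BL/6J in its methods) from birth to postnatal day 14 in room air (21% oxygen) or in hyperoxia (80% oxygen). Such hyperoxia is a mouse model of the lung injury of preterm infants. The study asked which lung cells and EC genes differ between these groups. Whole lungs of 2 week old mice were digested without a sort for ECs, and the cells of 8 mice were pooled into 1 library per group on the 10x Genomics droplet platform. Molecules were counted by their unique molecular identifiers (UMIs) and assigned to a droplet by its barcode. With 1 library per group there was no replicate and no test between the groups, the mice of a pool could not be separated, and oxygen level and library cannot be told apart.

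In room air 4234 barcodes carried 39593888 UMIs, and in hyperoxia 13223 barcodes carried 111934936. Kept were barcodes in which 500 or more genes were detected and mitochondrial UMIs did not exceed 20%. These were 3809 barcodes of the room air library, with a median of 8299 UMIs, and 11711 of the hyperoxia library, with a median of 8009. Both libraries shared 17 barcode sequences, of which 13 were kept and 0 belonged to aCap cells.

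ECs were kept barcodes with at least 3 UMIs of *Cdh5*, *Pecam1* and *Cldn5* together and no UMI of the leukocyte gene *Ptprc* or the epithelial gene *Epcam*, 988 in room air and 2703 in hyperoxia. An EC was taken as an aCap cell by its own UMIs. The sum A of *Car4*, *Ednrb*, *Emp2*, *Tbx2* and *Fibin* had to be at least 3 and above the sum G of the gCap genes *Gpihbp1*, *Plvap*, *Sema3c* and *Kit*. Cells with a UMI of the arterial genes *Gja5* or *Bmx*, with more than 1 UMI of the venous genes *Slc6a2* and *Vwf*, with a UMI of the lymphatic genes *Prox1* or *Mmrn1*, or with at least 3 UMIs of the proliferation genes *Mki67*, *Top2a* and *Rrm2* were left out. This gave 1003 aCap cells among the 15520 kept barcodes, 131 in room air and 872 in hyperoxia. For comparison, gCap cells were chosen by the mirrored rule (G of at least 3 and above A, the other limits as before), 548 in room air and 1088 in hyperoxia.

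Few aCap cells sat at the edge of the rule. In room air 4 aCap cells had an A of 3 and 3 cells just outside had an A of 2, and in hyperoxia these numbers were 27 and 22. A exceeded G by 1 in 1 aCap cell of room air and 25 of hyperoxia, and another 1 and 23 cells stayed out because A equalled G. Cells with UMIs of both kinds were more common in hyperoxia. Of the cells that met all limits other than A and G, 168 of 713 in room air (23.6%) and 1154 of 2117 in hyperoxia (54.5%) had at least 3 UMIs of A and at least 3 of G. These shares use the values of the rule, from UMIs not matched for depth, and are a description only.

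The values that chose the members are given as a description. The median aCap cell had 48 UMIs of A in room air (interquartile range 16 to 101) and 32 in hyperoxia (13 to 58.2), and 3 and 9 UMIs of G. All 5 genes of A were present in 84 of the 131 cells of room air and 362 of the 872 cells of hyperoxia. Levels are in CPM, the UMIs of a gene summed over the aCap cells of a library per 1000000 UMIs of these cells. *Car4* stood at 1636 CPM in room air against 1170 CPM in hyperoxia, and *Ednrb* at 1138 and 540.6 CPM. *Emp2* stood at 3589 and 1807 CPM, *Tbx2* at 751 and 658 CPM, and *Fibin* at 679 and 419.5 CPM. All 5 genes of A were thus lower in the aCap cells of hyperoxia. Of the genes of G, *Gpihbp1* (284 and 104 CPM), *Plvap* (133 and 48.7 CPM) and *Kit* (50.6 and 14.4 CPM) were lower in hyperoxia and *Sema3c* (493 and 1281 CPM) was higher. After every cell had been thinned at random to 2000 UMIs, which 107 aCap cells of room air and 752 of hyperoxia reached, the mean A per cell was 15.6 and 9.27 UMIs. The mean of *Sema3c* was then 0.935 and 2.62 UMIs per cell, and the mean of the other genes of G together 0.757 and 0.263.

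The label was checked with 12 aCap genes that the rule did not use. All 12 were measured, which here means a mean of at least 20 CPM over both libraries. Of 6902 genes measured in aCap or gCap cells, 218 (3.16%) were at least 2-fold higher in aCap than in gCap cells in both libraries and 227 (3.29%) at least 2-fold lower. The aCap genes had 10 of 12 among the higher ones. *Apln*, the ligand apelin, stood at 647 CPM in aCap and 41.9 CPM in gCap cells of room air, and at 568 and 148 CPM in hyperoxia. *Igfbp7* stood at 4054 and 407 CPM in room air and at 2646 and 828 CPM in hyperoxia. The exceptions were *Nckap5*, lower in aCap than in gCap cells of both libraries (112 against 282 CPM in room air, 131 against 243 CPM in hyperoxia), and *Prx*, which fell short of 2-fold in hyperoxia (722 and 402 CPM). Of 12 gCap genes outside the rule 9 were measured in aCap or gCap cells, and 7 of these were at least 2-fold lower in aCap cells of both libraries. The apelin receptor gene *Aplnr* stood at 26.2 CPM in aCap and 296 CPM in gCap cells of room air, and at 8.72 and 95.8 CPM in hyperoxia. The label thus matched these markers in both libraries, although the comparison is tied to the rule and is a description only.

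Transcripts of other lung cells were present in the aCap barcodes. Of 12 fibroblast and stroma genes all 12 were detected in both libraries, with a summed 1376 CPM in room air against 2832 CPM in hyperoxia and *Mfap4* as the most abundant (380 and 899 CPM). With *Sema3c* left out of G (the rule is varied below) these sums were 3612 and 2821 CPM, so the direction depended on the rule. Of these 12 genes 11 were measured and 6 were at least 2-fold higher in hyperoxia, against 1.73% of all genes measured in aCap cells. The pericyte and smooth muscle list summed to 812 CPM in room air (9 of 10 genes, *Cnn1* at 0, *Postn* most abundant). In hyperoxia it summed to 923 CPM (all 10, *Acta2* most abundant). Of its 8 measured genes 2 were at least 2-fold higher and 4 at least 2-fold lower, against 1.73% and 1.99% over all genes. Its sums were 165 and 192 CPM with barcodes thinned to 2000 UMIs before the rule and 896 and 880 CPM with *Sema3c* left out of G, so no direction is given for it. In these lists the 5 cells with the most UMIs held most of the signal in room air, 73.0% of the fibroblast and 79.1% of the pericyte UMIs, and 22.5% and 43.5% in hyperoxia, where 5 of 872 cells are a smaller part than 5 of 131, so these shares are not compared between the libraries. The red cell and platelet list, led by *Hbb-bs* and with all 7 genes detected, was the most abundant of the 13 lists in room air at 4243 CPM, against 1944 CPM in hyperoxia. The 5 cells with the most UMIs held 96.85% and 80.59% of its UMIs, shares that are not compared between the libraries either. The median aCap cell had 0 UMIs of this list in both libraries, and the study had lysed red blood cells. Barcodes with many UMIs of another lineage (at least 5 of *Cox4i2*, *Higd1b*, *Notch3*, *Pdgfrb* and *Ndufa4l2*, or at least 20 of *Col1a1*, *Col1a2*, *Col3a1*, *Mfap4* and *Dcn*, of *Hba-a1* and *Hbb-bs*, or of *Sftpc*, *Sftpb* and *Ager*) were 17 of the aCap cells of room air (13.0%) and 92 of hyperoxia (10.6%). They are called mixed cells here, with limits chosen after the data had been seen. Without them the fibroblast list summed to 163 CPM in room air against 213 CPM in hyperoxia, the pericyte list to 55.4 and 51.3 CPM and the red cell list to 125 and 52.4 CPM, lower values that follow in part from the limits themselves, which use genes of these lists.

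Epithelial and leukocyte markers were detected in both libraries as well. Of 10 alveolar type 1 genes 9 were detected in room air (439 CPM, *Krt7* at 0) and 10 in hyperoxia (266 CPM), and *Hopx* held 417 and 237 CPM of these sums. The alveolar type 2 list, all 10 genes detected, summed to 602 CPM in room air against 637 CPM in hyperoxia, with *Sftpc* at 432 and 499 CPM, and with barcodes thinned to 2000 UMIs before the rule to 2785 and 2458 CPM. The airway list summed to 735 CPM (6 of 7 genes, *Foxj1* at 0) and 634 CPM (7 of 7), with *Scgb1a1* at 479 and 392.5 CPM. The 13 myeloid genes, all detected, summed to 166 and 148 CPM, led by *Lyz2*, and to 554 and 480 CPM with thinned barcodes. Lymphocyte genes summed to 18.1 CPM in room air, where 4 of the 9 genes in the files were detected and *Ms4a1*, *Cd3e*, *Cd3g*, *Nkg7* and *Klrd1* were at 0, and to 25.6 CPM in hyperoxia (9 of 9), led by *Cd79a*, and to 96.2 and 51.5 CPM with thinned barcodes, so no direction is given for them. All 4 mesothelial genes (*Msln*, *Wt1*, *Upk3b* and *Lrrn4*) were at 0 in room air and summed to 7.94 CPM in hyperoxia, led by *Upk3b*. The 5 cells with the most UMIs held 98.4% of this signal in hyperoxia, and the sum without mixed cells was 0.469 CPM.

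Among the lists of other ECs, the arterial list stood at 1399 CPM in room air (7 of 8 genes, *Dkk2* at 0) against 1532 CPM in hyperoxia (8 of 8), led by the matrix gene *Mgp* that stromal cells also express. The 5 cells with the most UMIs held 73.2% and 17.9% of this signal, and the sums were 388 and 339 CPM without mixed cells and 2374 and 1506 CPM with *Sema3c* left out of G, so no direction is given for this list. The venous list rested on *Lyve1* and summed to 346 CPM in room air (5 of 8 genes, with *Ackr1*, *Selp* and *Bst1* at 0) against 712 CPM in hyperoxia (7 of 8, *Ackr1* at 0). The lymphatic list, with *Lyve1* as its most abundant gene too, summed to 281 CPM (5 of 7, *Ccl21a* and *Tbx1* at 0) and 653 CPM (7 of 7). *Lyve1*, a hyaluronan receptor, stood at 177 CPM in aCap cells of room air and 575 CPM in hyperoxia (log2 ratio 1.70), against 608 and 803 CPM in gCap cells. *Xist* and 4 Y-linked genes were detected in the aCap cells of both libraries, so that both pools held mice of both sexes, with summed levels of 359 and 575 CPM led by *Xist*. The part of these transcripts in the results was not tested except where values without mixed cells are given.

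The share of aCap cells among ECs was higher in the hyperoxia library. It was 13.3% in room air (131 of 988 ECs, 95% Clopper-Pearson interval 11.2 to 15.5) and 32.3% in hyperoxia (872 of 2703, 30.5 to 34.1), a difference of 19.0 percentage points (16.1 to 21.7). All intervals cover counting error only, not the differences between mice or libraries. gCap cells made up 55.5% of ECs in room air and 40.2% in hyperoxia, a difference of −15.2 points (−18.9 to −11.5). ECs in neither group, which include arterial, venous, lymphatic and dividing cells and those at the limits of the rule, made up 31.3% and 27.5%. Among all kept barcodes aCap cells were 3.44% in room air and 7.45% in hyperoxia. As the genes of A and G themselves stood at other levels in hyperoxia, the share depended on the rule. With *Emp2*, which alveolar type 1 cells also express, left out of A, the difference in the aCap share of ECs was 12.3 points. With *Sema3c* left out of G it was 26.8 points. Whether the number of aCap cells or the expression of the genes that define them differed was not tested.

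aCap cells had a median of 7624 UMIs and 2958 genes in room air and 8554.5 UMIs and 3161.5 genes in hyperoxia. Mitochondrial UMIs made up a median of 2.36% and 3.23% of the UMIs of a cell. The summed depth was 1106454 UMIs in room air and 7685790 in hyperoxia, so that 1 UMI weighed more in room air and the room air library set the precision of every ratio.

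Most genes stood at similar levels in the aCap cells of both libraries. Of 6483 genes measured in aCap cells, 112 (1.73%) were at least 2-fold higher in hyperoxia and 129 (1.99%) at least 2-fold lower. On the log2 scale the ratio of hyperoxia over room air had a median of 0.02, the 25th and 75th percentiles lay at −0.23 and 0.26, and the middle 95% of genes ran from −0.92 to 0.90. The interval of the ratio lay above 0 on the log2 scale for 1123 genes and below 0 for 1037.

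**Figure D1:**
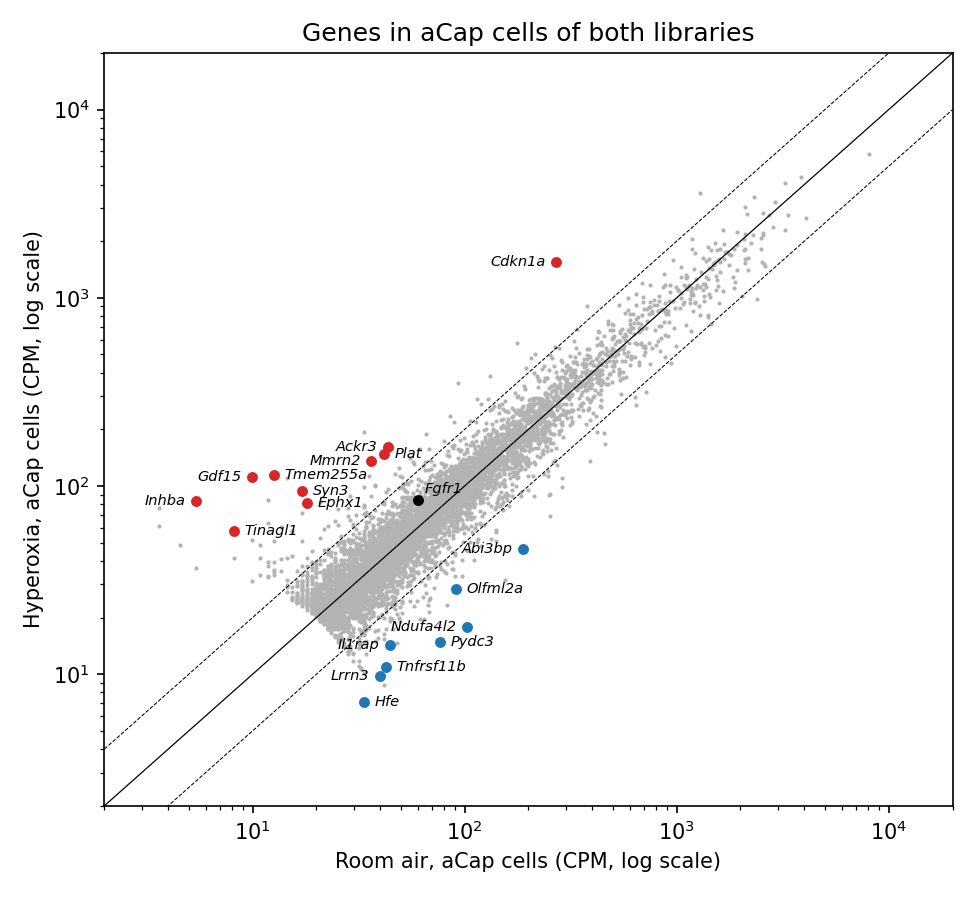
Each point is a gene measured in aCap cells, with its level in room air on the x axis and in hyperoxia on the y axis (CPM, both axes log scale), the solid line marks equal levels and the dashed lines a 2-fold difference. Red points are the 10 largest and blue points 8 of the 10 smallest ratios among genes at least as high in aCap cells as in cells without endothelial UMIs, and *Fgfr1* (black) lies between the dashed lines at 60.6 and 84.7 CPM. Grey points include genes passed over for a higher level in such cells.

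The largest ratios included those of secreted signals, an inhibitor of the cell cycle and matrix genes. The ranking was limited to genes whose level in aCap cells, in the library where they were higher, was at least that of the kept barcodes with no UMI of *Cdh5*, *Pecam1* or *Cldn5*. *Inhba* (ENSMUSG00000041324, chr13:16011851-16031621), which encodes the activin A subunit, led with 5.42 CPM in room air (95% Poisson interval 1.99 to 11.8) against 82.8 CPM in hyperoxia (76.4 to 89.4). Its ratio was 15.3 (95% interval 6.97 to 41.7), resting on 6 UMIs in room air, where it was not shown to exceed the background (below), and 636 in hyperoxia. In hyperoxia *Inhba* was an aCap gene within the capillary, with 0.722 CPM in gCap cells of room air and 11.99 CPM in gCap cells of hyperoxia. *Gdf15* (ENSMUSG00000038508, chr8:70629393-70632456), a stress cytokine of the TGF-beta family, stood at 9.94 CPM in room air (4.96 to 17.8) against 111.5 CPM in hyperoxia (104 to 119), a ratio of 11.2 (6.24 to 22.6), although in room air its share of cells was close to that of the background (below). *Tmem255a*, a transmembrane protein gene, stood at 12.7 and 114 CPM, a ratio of 8.99 (5.33 to 16.5). The interval of its share of cells in room air overlapped that of the background (below). *Tinagl1*, a matrix glycoprotein gene, stood at 8.13 and 57.8 CPM, a ratio of 7.10 (3.71 to 15.6). These 4 genes were scarce in room air, where each was seen in 10 or fewer of the 131 aCap cells. The log2 ratio of *Gdf15* was 3.49, with 2.87 in barcodes thinned to 2000 UMIs before the rule and 4.31 as a mean over cells, and that of *Tinagl1* was 2.83, with 3.85 and 3.66, each beyond 2-fold. Thinning left few UMIs of both genes in room air, so the size of the thinned values is uncertain.

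*Cdkn1a*, which encodes the cyclin-dependent kinase inhibitor p21, came next, with 271 CPM in room air (241 to 304) against 1559 CPM in hyperoxia (1531 to 1587). The ratio was 5.75 (5.13 to 6.47). The others of the 10 largest ratios were *Syn3* (synapsin III, 17.2 and 94.3 CPM), *Ephx1* (microsomal epoxide hydrolase, 18.1 and 81.6 CPM), *Mmrn2* (multimerin 2 of the endothelial matrix, 36.2 and 136 CPM), *Ackr3* (a scavenging receptor for CXCL12, 43.4 and 162 CPM) and *Plat* (tissue plasminogen activator, 41.6 and 147 CPM). Each had its whole counting interval above 2-fold, the lowest being that of *Plat* (log2 ratio 1.82, 1.40 to 2.28). In gCap cells these genes were higher in hyperoxia as well, but *Mmrn2* (107 and 182 CPM) and *Plat* (68.3 and 96.4 CPM) stayed under 2-fold there. With all barcodes thinned to 2000 UMIs before the rule, *Syn3* had a log2 ratio of 3.26 against 2.46 as reported and *Plat* 2.94 against 1.82.

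Genes passed over by the ranking, named here after their values were seen, included some with larger ratios. *Zbtb16*, a transcription factor gene that glucocorticoids induce, stood at 3.62 CPM in aCap cells of room air and 76.5 CPM in hyperoxia, and at 7.46 and 87.3 CPM in gCap cells. The muscle actin gene *Actc1* stood at 3.62 and 61.4 CPM in aCap cells but at 28.9 and 3.23 CPM in gCap cells. Both were more abundant in cells without endothelial UMIs, and the part of these cells in the aCap values was not tested.

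The smallest ratios included those of an interferon-inducible gene and of matrix genes. *Pydc3*, an interferon-inducible gene of the pyrin domain family, stood at 76.8 CPM in room air (61.4 to 94.99) against 14.8 CPM in hyperoxia (12.2 to 17.8), a ratio of 0.193 (0.144 to 0.259). *Lrrn3*, which encodes a leucine-rich repeat membrane protein of neurons, stood at 39.8 and 9.76 CPM. It was near absent from gCap cells, at 0.241 and 0.939 CPM, so that the lower level in hyperoxia concerned a gene that in the capillary belonged to aCap cells. *Tnfrsf11b*, which encodes osteoprotegerin, was lower in the aCap cells of hyperoxia too, with 42.5 and 10.9 CPM, and stood at 3.61 and 4.07 CPM in gCap cells. *Hfe*, a regulator of iron uptake, stood at 33.4 and 7.16 CPM, and the matrix genes *Abi3bp* (188 and 46.5 CPM) and *Olfml2a* (91.3 and 28.5 CPM) were more abundant members of the group. *Il1rap*, the accessory chain of the interleukin 1 receptor, stood at 44.3 and 14.3 CPM. With *Sema3c* left out of G the log2 ratio of *Hfe* was −1.59 against −2.22, and with thinned barcodes that of *Lrrn3* was −2.76 against −2.03 and that of *Il1rap* −2.49 against −1.63.

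The ratio of *Ndufa4l2*, a mitochondrial protein gene that pericytes also express, rested on a handful of barcodes. It stood at 103 CPM in room air against 17.8 CPM in hyperoxia (log2 ratio −2.53), but the 5 cells with the most UMIs held 97.4% and 68.6% of its UMIs. With thinned barcodes the log2 ratio was −0.26.

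*Fgfr1* (ENSMUSG00000031565, chr8:25513654-25575718), the FGF receptor gene the study follows in ECs, was higher in the aCap cells of hyperoxia by less than 2-fold. It stood at 60.6 CPM in room air (67 UMIs, 95% interval 46.9 to 76.9) against 84.7 CPM in hyperoxia (651 UMIs, 78.3 to 91.5), a log2 ratio of 0.48 (0.12 to 0.87). The ratio of 1.40 did not reach 2-fold. Between cell types the gap was larger, since *Fgfr1* stood at 16.8 CPM in gCap cells of room air and 28.4 CPM in gCap cells of hyperoxia. In gCap cells it was higher in hyperoxia too. aCap cells thus held 3.60 and 2.99 times the gCap level. Among the kept barcodes without endothelial UMIs *Fgfr1* was at 72.8 and 99.5 CPM. At least 1 UMI of *Fgfr1* was found in 31.3% of the aCap cells of room air (41 of 131) and 40.9% of those of hyperoxia (357 of 872). At 2000 UMIs per cell these shares were 11.2% (5.93 to 18.8) and 16.2% (13.7 to 19.1). B cells, which should lack *Fgfr1* and served as the background for free RNA, had it in 0.595% and 2.09% at the same depth (4.26% and 4.32% before thinning, with medians of 4367 and 2866 UMIs). The detection in aCap cells was above this background in both libraries, while the intervals of room air and hyperoxia overlapped, which does not show that the shares are equal.

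The list of FGF receptors and feedback genes of the FGF/ERK pathway showed no shared direction. Of 18 genes 14 were measured, 0 were at least 2-fold higher or lower, and the median log2 ratio was −0.04 against 0.02 over all genes. *Ccnd1*, which encodes cyclin D1, had the largest ratio, with 687 CPM in room air against 1204 CPM in hyperoxia (log2 ratio 0.81, 0.70 to 0.92), and passed 2-fold with thinned barcodes (1.04) and with *Sema3c* left out of G (1.01). *Fgfr3* stood at 84.0 and 145 CPM (0.78, 0.48 to 1.10), and in gCap cells at 22.6 and 97.1 CPM. *Fgfr2* stood at 20.8 and 20.6 CPM, with an interval from −0.65 to 0.68 that shows the depth available for a gene of this level. The feedback inhibitors *Spry1* (85.9 and 65.3 CPM) and *Spry2* (24.4 and 17.8 CPM) and the ERK phosphatase gene *Dusp6* (135 and 112 CPM) stayed within 2-fold, and only the interval of *Spry1* among these 3 lay below 0 (log2 ratio −0.40, −0.71 to −0.06). *Etv1*, a transcription factor gene downstream of ERK, stood at 25.3 and 17.3 CPM. With thinned barcodes *Fgfr2* had a log2 ratio of −0.88 against −0.02 and *Etv1* −1.73 against −0.55. Both genes were scarce, so the size of these thinned values is uncertain. *Etv1* was also past 2-fold without the tenth of cells with the most UMIs (−1.03) and without mixed cells (−1.01).

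p53 targets and genes of growth arrest were the list with the most members past 2-fold on the higher side. Of 23 genes 17 were measured, 7 (41.2%) were at least 2-fold higher and 1 (5.88%) was at least 2-fold lower, against 1.73% and 1.99% over all genes, and the median log2 ratio was 0.76 against 0.02. Besides *Cdkn1a* and *Gdf15*, the higher ones were *Trp53inp1* (35.2 and 114 CPM), *Zmat3* (28.9 and 89.0 CPM), the pro-apoptotic gene *Bax* (205 and 480 CPM), *Ccng1* (cyclin G1, 33.4 and 76.9 CPM) and the nuclease gene *Aen* (26.2 and 54.0 CPM). *Mdm2*, which encodes the ligase that degrades p53, stood at 53.3 and 92.4 CPM (log2 ratio 0.79, 0.41 to 1.20). The gene of another cell cycle inhibitor was lower. *Cdkn2b*, which encodes p15 and was an aCap gene within the capillary, stood at 86.8 CPM in room air against 36.0 CPM in hyperoxia (−1.27), and at −0.99 or just under 2-fold without the tenth of cells with the most UMIs. In gCap cells it stood at 3.61 and 4.69 CPM. The median of the list was 0.89 in gCap cells, where *Cdkn1a* stood at 118 and 1200 CPM.

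*Cdkn1a* was present in most aCap cells of hyperoxia and not in a small group alone. At least 1 UMI was found in 55.0% of the aCap cells of room air (72 of 131) and 95.2% of those of hyperoxia (830 of 872). At 2000 UMIs per cell the shares were 31.8% (23.1 to 41.5) and 85.1% (82.4 to 87.6), against 4.17% and 12.7% of B cells (12.2% and 18.7% before thinning). At least 3 UMIs at this depth were found in 6.54% (2.67 to 13.0) of the aCap cells of room air and 51.1% (47.4 to 54.7) of those of hyperoxia, and at least 5 UMIs in 0 of 107 and in 183 of 752 (24.3%). *Gdf15* and *Inhba* were present in smaller groups of cells, 15.03% and 11.7% of the thinned aCap cells of hyperoxia (28.1% and 24.4% before thinning). In thinned aCap cells of room air the shares were 1.87% and 0.935%, in thinned B cells of room air 1.79% and 0% (5.32% and 0.532% before thinning) and in thinned B cells of hyperoxia 1.45% and 0.161% (3.21% and 0.697% before thinning). *Gdf15* in the aCap cells of room air (0.227 to 6.59%) was thus not shown to be above the background of free RNA in B cells (0.370 to 5.13%). The same held for *Inhba*, in 1 of 107 of these aCap cells (0.0237 to 5.10%) against 0 of 168 B cells (0 to 2.17%). This makes the size of both ratios uncertain. *Tmem255a* was found in 4.67% (1.53 to 10.6) of these aCap cells and 0.595% (0.0151 to 3.27) of these B cells, with overlapping intervals. In thinned hyperoxia aCap cells *Gdf15* was found in 15.9% (13.2 to 19.0) of cells with *Cdkn1a* and 9.82% (5.01 to 16.9) of cells without it, and *Inhba* in 11.9% (9.47 to 14.6) and 10.7% (5.66 to 17.97). The intervals overlapped for both genes, which does not show that the shares are equal. They did not overlap for *Apln*, found in 62.2% (58.3 to 65.96) of cells with *Cdkn1a* and 48.2% (38.7 to 57.9) of cells without it, or for *Calcrl*, found in 84.4% (81.3 to 87.1) of cells with *Cdkn1a* and 70.5% (61.2 to 78.8) of cells without it, so a link of *Cdkn1a* with the detection of other genes in general is not excluded. *Tmem255a* was found in 28.4% (19.3 to 39.0) of cells with *Inhba* and 13.7% (11.2 to 16.6) of cells without it, whose intervals did not overlap. *Gdf15* was found in 13.6% (7.25 to 22.6) of cells with *Inhba* and 15.2% (12.6 to 18.2) of cells without it, with overlapping intervals.

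Genes of the S and G2/M phases outside the rule were mostly below the level needed. Of 28 genes 5 were measured, 0 passed 2-fold in either direction and the median was −0.05. *Pcna*, the DNA polymerase clamp, stood at 64.2 and 49.0 CPM and *Mcm3*, a subunit of the replicative helicase, at 28.0 and 24.6 CPM. As the rule left out cells with at least 3 UMIs of proliferation genes, these values do not describe how many aCap cells divided.

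The promoter of *Cdkn1a* and that of the adhesion gene *Icam1* are shown since these genes stood high in the aCap cells of hyperoxia and each holds a pattern of letters that is rare among promoters. The pattern CATG, then 6 bases of any kind, then CATG, which holds both cores of the p53 motif, was searched on both strands of the RefSeq promoters, which reach from 250 bases before to 50 bases after the start of a gene. It was present in 0.712% of 32851 mouse promoters (234). For the 7 genes of the p53 list at least 2-fold higher, 5 matched an entry with 8 promoters, and 1 promoter held the pattern, that of *Cdkn1a*, from 48 to 35 bases before the start. GGAAATTCC, a form of the NF-kappaB motif, was present in 0.317% of the promoters (104), among them the 1 promoter of *Icam1*, from 153 to 145 bases before the start. Capitals mark the pattern in a stretch of 70 bases of the plus strand (GRCm38.p6), at chr17:29090903-29090972 for *Cdkn1a* and chr9:21015757-21015826 for *Icam1*, both ahead of the annotated gene and so in no exon. A match is a description of the letters and shows no binding.
Cdkn1a: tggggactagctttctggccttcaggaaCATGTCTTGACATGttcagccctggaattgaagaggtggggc
Icam1: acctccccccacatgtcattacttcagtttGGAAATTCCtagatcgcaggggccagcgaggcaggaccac

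Growth factor signalling of the VEGF, apelin and angiopoietin families leaned towards lower levels in hyperoxia. Of 16 genes 11 were measured, 10 had a ratio below 1 (3100 of 6483 over all genes) and 1 above, 1 was at least 2-fold higher (*Ackr3*) and 1 at least 2-fold lower (*Tek*), against 1.73% and 1.99% over all genes, with a median of −0.31. The median in gCap cells was −0.31 as well. *Tek*, the angiopoietin receptor, stood at 81.3 and 34.4 CPM in aCap cells (−1.24, −1.59 to −0.88), but at −0.72 with *Sema3c* left out of G. *Dll4*, a Notch ligand gene induced by VEGF, stood at 111 and 68.6 CPM and *Angpt1* at 38.0 and 25.1 CPM. The VEGF receptor gene *Kdr* stood at 2502 CPM in room air against 2076 CPM in hyperoxia (−0.27, −0.33 to −0.21), against 551 and 733 CPM in gCap cells. *Apln* (ENSMUSG00000037010, chrX:48025146-48034853) showed the same crossing, with a log2 ratio of −0.19 (−0.30 to −0.07) in aCap and 1.82 in gCap cells. In aCap cells both values were small. That of *Apln* lay within the 25th and 75th percentiles of all genes (−0.23 and 0.26) and that of *Kdr* just below them. Both genes remained several times higher in aCap than in gCap cells, by a ratio of 15.5 for *Apln* in room air and 3.83 in hyperoxia, and of 4.54 and 2.83 for *Kdr*.

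In the Notch pathway 8 of 14 genes were measured, 0 were at least 2-fold higher and 2 (25%) at least 2-fold lower. Over all genes these shares were 1.73% and 1.99%. The median of the list was −0.16. *Hes1*, a direct Notch target that other signals also induce, stood at 713 CPM in room air against 316 CPM in hyperoxia (−1.17, −1.29 to −1.06), and in gCap cells at 591 and 280 CPM. At 2000 UMIs per cell it was found in 69.2% of the aCap cells of room air (82.4% before thinning) and 41.4% of those of hyperoxia (72.9%), against 21.4% and 17.1% of B cells (35.1% and 25.9%). *Notch3*, a receptor gene of pericytes and smooth muscle, stood at 33.4 and 10.2 CPM (−1.72) in aCap cells and at −0.77 with thinned barcodes. It is on the pericyte list, which summed to 812 and 923 CPM, and of which 4 of 8 measured genes, *Notch3* among them, were at least 2-fold lower and 2 at least 2-fold higher. Without mixed cells, whose limits use *Notch3* itself, 2 genes of the Notch list were at least 2-fold lower as well. The part of pericyte transcripts in the value of *Notch3* was not tested beyond this. The endothelial receptor genes *Notch1* (254 and 267 CPM) and *Notch4* (77.7 and 67.8 CPM) differed little.

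Of 24 BMP and TGF-beta genes 20 were measured, 0 were at least 2-fold higher and 1 (5%) at least 2-fold lower. The shares over all genes were 1.73% and 1.99%. The median of the list was 0.09. *Bmp4* stood at 34.3 and 12.8 CPM (−1.43, −1.98 to −0.85), but its direction reversed to 1.01 with thinned barcodes, so no direction is given for it. *Tmem100*, a target of BMP signalling in ECs, stood at 1652 and 1086 CPM (−0.61), against 1456 and 1441 CPM in gCap cells. *Bambi*, a decoy receptor gene, stood at 46.1 and 66.1 CPM (0.52), and its direction differed as a mean over cells (−0.16).

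The antioxidant genes, which include targets of the oxidant sensor NRF2, differed little. Of 25 genes 16 were measured, 1 (6.25%) was at least 2-fold higher and 0 at least 2-fold lower, against 1.73% and 1.99% over all genes. The median was 0.14. The exception was *Txnrd1*, which encodes thioredoxin reductase, at 11.8 CPM in room air against 37.3 CPM in hyperoxia (1.67, 0.87 to 2.59), and at 0.89 as a mean over cells. Its substrate gene *Txn1* stood at 699 and 497 CPM (−0.49). The superoxide dismutase genes *Sod1* (114 and 152 CPM) and *Sod2* (102 and 89.0 CPM) and the heme oxygenase gene *Hmox1* (23.5 and 28.8 CPM) stayed within 2-fold. Extracellular *Sod3* stood at 21.7 and 29.7 CPM (0.45), with values from −0.87, with *Sema3c* left out of G, to 1.16, with *Emp2* left out of A.

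Of 23 HIF target and glycolysis genes 15 were measured, 0 passed 2-fold in either direction, and the median was −0.09. *Aldoa*, a glycolytic enzyme gene, stood at 240 and 171 CPM (−0.49), and *Ldha* at 202 and 168 CPM (−0.27). *Epas1*, which encodes HIF-2 alpha and is abundant in lung ECs, stood at 2094 and 1617 CPM (−0.37) and *Hif1a* at 75.01 and 103 CPM (0.46). In gCap cells *Aldoa* (132 and 188 CPM) and *Ldha* (194 and 275 CPM) were higher in hyperoxia, and the median of the list was 0.33.

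Interferon-stimulated genes leaned towards lower levels in the aCap cells of hyperoxia, most of them by less than 2-fold. Of 28 genes 17 were measured, 16 had a ratio below 1 (3100 of 6483 over all genes), 7 (41.2%) were at least 2-fold lower and 0 at least 2-fold higher, against 1.99% and 1.73% over all genes, and the median was −0.76. *Isg15*, a ubiquitin-like protein gene, stood at 31.6 CPM in room air against 11.7 CPM in hyperoxia (−1.43, −2.01 to −0.83). The guanylate-binding protein gene *Gbp7* stood at 96.7 and 40.2 CPM (−1.27) and *Igtp*, an interferon-inducible GTPase gene, at 38.0 and 14.96 CPM (−1.34). With *Sema3c* left out of G, 3 genes were at least 2-fold lower and the median was −0.73, with *Igtp* at −0.86 and *Gbp7* at −0.96. *Gbp7* was also under 2-fold with thinned barcodes (−0.70). The median over gCap cells was −0.74.

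Antigen presentation genes leaned in the same direction. Of 22 genes 15 were measured and all 15 had a ratio below 1 (3100 of 6483 over all genes). At least 2-fold lower were 3 (20%) and at least 2-fold higher 0, against 1.99% and 1.73% over all genes. The median was −0.66. *Psmb9*, a subunit of the immunoproteasome, stood at 88.6 and 36.0 CPM (−1.30), the peptide transporter gene *Tap1* at 86.8 and 39.3 CPM (−1.14) and the class I gene *H2-T23* at 198 and 95.5 CPM (−1.05). These 3 genes were under 2-fold with *Sema3c* left out of G (−0.97, −0.90 and −0.80), where the median was −0.52, and *Tap1* reached −1.94 with thinned barcodes. The abundant class I gene *H2-K1* stood at 909 and 629 CPM and *B2m*, the shared light chain, at 2242 and 1950 CPM. In gCap cells the median of the list was −1.11, with *H2-K1* at 1770 and 674 CPM. The class II chain gene *Cd74* was scarce in aCap cells of both libraries (29.8 and 28.6 CPM) and differed in gCap cells (290 and 31.9 CPM). Reads of the near-identical *H2-Q* genes may have been split between copies, so single values of these are uncertain.

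Of 18 leukocyte adhesion and chemokine genes 8 were measured, 1 (12.5%) was at least 2-fold higher and 1 at least 2-fold lower. These compare with 1.73% and 1.99% over all genes, and the median of the list was −0.36. *Icam1* (ENSMUSG00000037405, chr9:21015985-21028817), the ligand of leukocyte integrins, stood at 132 CPM in room air (111 to 155) against 386 CPM in hyperoxia (372 to 400), a ratio of 2.92 (2.48 to 3.48). At 2000 UMIs per cell it was found in 19.6% (12.6 to 28.4) of the aCap cells of room air and 44.8% (41.2 to 48.4) of those of hyperoxia, while B cells, which express it themselves, had it in 11.9% and 12.6%. Before thinning the shares were 49.6% and 71.7% in aCap and 23.9% and 21.5% in B cells. *Cx3cl1*, the membrane-bound chemokine fractalkine, stood at 106 and 50.1 CPM (−1.08) and fell short of 2-fold without the tenth of cells with the most UMIs (−0.87) and without mixed cells (−0.97). *Ackr2*, a decoy receptor gene for chemokines, stood at 123 and 72.0 CPM in aCap cells, against 27.0 and 49.3 CPM in gCap cells. *Vcam1* stood at 17.2 and 24.5 CPM, with an interval from −0.17 to 1.27.

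The junction and permeability list had no shared direction. Of 27 genes 23 were measured, 1 (4.35%) was at least 2-fold higher and 1 at least 2-fold lower, against 1.73% and 1.99% over all genes. The median was −0.05. *Gja4*, which encodes connexin 37, stood at 38.9 and 17.2 CPM (−1.18), but at −0.56 with *Sema3c* left out of G and −0.36 with thinned barcodes. *Cgnl1*, which encodes the junction protein paracingulin, stood at 65.1 and 133 CPM (1.04), and at 0.90 with thinned barcodes. *Aqp1*, the endothelial water channel, stood at 885 and 485 CPM (−0.87, −0.97 to −0.76), while in gCap cells it was at 962.5 and 806 CPM. *S1pr1*, the receptor of sphingosine 1-phosphate that strengthens the barrier, stood at 693 and 1010 CPM (0.54) and the caveolin gene *Cav1* at 639 and 482 CPM (−0.41).

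Genes of vascular tone and the response to flow split evenly, 8 above and 8 below equal levels. Of 23 genes 16 were measured, 0 were at least 2-fold higher and 2 (12.5%) at least 2-fold lower. Over all genes 1.73% were at least 2-fold higher and 1.99% lower. The median of the list was −0.13. *Npr3*, the clearance receptor of natriuretic peptides, stood at 57.8 and 23.2 CPM (−1.32), but at −0.16 with thinned barcodes. *Pde5a*, the phosphodiesterase that degrades cyclic GMP and is also expressed by pericytes, stood at 248.5 and 120 CPM (−1.05), but at −0.27 without mixed cells and −0.56 with thinned barcodes. *Hpgd*, the enzyme that inactivates prostaglandins, stood at 2044 CPM in room air against 1022 CPM in hyperoxia (−0.999, −1.07 to −0.93), against 2329 and 2553 CPM in gCap cells. Its value was −1.201 with *Emp2* left out of A, −1.09 with thinned barcodes and −0.64 with *Sema3c* left out of G, so its side of 2-fold depended on the rule. *Calcrl*, the receptor of adrenomedullin, stood at 2585 and 1520 CPM (−0.77, −0.82 to −0.71), against 2602 and 2615 CPM. *Ace*, the angiotensin-converting enzyme, stood at 746 and 446 CPM (−0.74), against 794 and 699 CPM. The transcription factor gene *Klf4*, induced by flow, stood at 748 and 1166 CPM (0.64) in aCap cells and at 597 and 1172 CPM in gCap cells.

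Basement membrane and matrix genes were the other list with several members on the higher side. Of 30 genes 25 were measured, 5 (20%) were at least 2-fold higher and 1 (4%) at least 2-fold lower, against 1.73% and 1.99% over all genes, and the median was 0.30. With *Sema3c* left out of G these were 3 and 2 genes and a median of 0.14. *Timp3*, an inhibitor of metalloproteinases, was the most abundant of the higher ones, at 1288 CPM in room air (1222 to 1356) against 3621 CPM in hyperoxia (3578 to 3663), a ratio of 2.81 (2.66 to 2.97). In gCap cells it stood at 253 and 1868 CPM. *Col18a1*, whose product releases endostatin, stood at 11.8 and 63.8 CPM (2.44, 1.65 to 3.36), with 3.90 without mixed cells and 3.69 with thinned barcodes. As *Col18a1* was scarce in room air, the size of the last 2 values is uncertain. *Fn1*, which encodes fibronectin, stood at 93.1 and 352 CPM (1.92), but at 1.20 without mixed cells, 0.61 with thinned barcodes and 0.45 with *Sema3c* left out of G. The gelatinase gene *Mmp2* stood at 33.4 and 98.6 CPM (1.56), and no value without mixed cells is given for it. *Sparcl1*, an extracellular protein gene of blood vessels, stood at 236 and 115 CPM (−1.03). Among the basement membrane collagens *Col4a1* stood at 2305 and 3414 CPM (0.57). The fibroblast list, which also holds *Fn1*, summed to 1376 and 2832 CPM in the same cells, but to 3612 and 2821 CPM with *Sema3c* left out of G. Its part in the values of *Fn1* and *Mmp2* was not tested beyond the value without mixed cells given for *Fn1*. Without mixed cells 4 genes of the matrix list were at least 2-fold higher, against 5 as reported. *Fn1*, *Col18a1* and *Tinagl1* (3.72) were among these 4.

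Of 23 semaphorin, ephrin and Slit genes outside the rule 16 were measured, 2 (12.5%) were at least 2-fold higher and 0 at least 2-fold lower. The shares over all genes were 1.73% and 1.99%, and the median of the list was −0.02. *Sema5a*, a transmembrane semaphorin gene, stood at 28.0 and 69.2 CPM (1.31) and reached 4.05 with thinned barcodes. Thinning left few of its UMIs in room air, so the size of the latter value is uncertain. *Plxna2*, a plexin receptor gene, stood at 89.5 and 220 CPM (1.30), and at 0.66 with thinned barcodes. *Sema7a* stood at 173 and 314 CPM (0.86). *Sema3c* itself is a gene of the rule and its values are given above.

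Genes that tissue digestion induces leaned towards higher levels in hyperoxia, nearly all by less than 2-fold. Of 18 genes 17 were measured, 13 had a ratio above 1 (3383 of 6483 over all genes) and 4 below. At least 2-fold higher was 1 and 0 were at least 2-fold lower, against 1.73% and 1.99% over all genes. The median was 0.25. With *Sema3c* left out of G, 0 genes passed 2-fold and the median was 0.19. *Fosb* stood at 106 and 223 CPM (1.07), and at 0.83 with *Sema3c* left out of G. *Zfp36*, an RNA-binding protein gene, stood at 212 and 398 CPM (0.91) and *Atf3* at 113 and 188 CPM (0.74). *Fos* itself stood at 603 and 758 CPM. *Atf3* and other members also respond to stress in the living tissue, and these sources cannot be told apart.

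Outside the rule, the genes with the largest ratios of aCap over gCap cells included *Cdkn2b* of the aCap genes used above to check the label. The leading 15, ranked by the library where the ratio was nearer to 1, were *Adamtsl5*, *Begain*, *Ccdc184*, *Cdkn2b*, *Egflam*, *Fam81a*, *Frrs1*, *Lmntd1*, *Lrrn3*, *Ncam1*, *Pde8b*, *Rgs6*, *Rprml*, *St6galnac5* and *Tmem255a*. *Begain*, which encodes a protein of the postsynaptic density, stood at 31.6 CPM in aCap and 0.481 CPM in gCap cells of room air and at 23.6 and 0.730 CPM in hyperoxia. *Frrs1*, a ferric reductase gene, was the most abundant in room air, at 111 and 5.05 CPM, with 94.6 and 10.8 CPM in hyperoxia. *Egflam*, which encodes the matrix protein pikachurin, stood at 96.7 and 12.03 CPM in room air and 72.3 and 10.1 CPM in hyperoxia. *Rprml* and *St6galnac5*, which encodes a sialyltransferase, had 0 UMIs in gCap cells of room air, and stood at 16.3 and 38.9 CPM in aCap cells. In thinned barcodes the neural adhesion gene *Ncam1* (18.1 and 1.68 CPM in room air) no longer reached 2-fold in both libraries, its lower log2 ratio being 0.61 against 3.42. The rule moved other values as well. With *Emp2* left out of A the lower log2 ratio was 3.70 against 5.01 for *Begain*, 2.92 against 3.77 for *Rprml*, 1.87 against 2.89 for *St6galnac5* and 2.48 against 3.13 for *Frrs1*, and with *Sema3c* left out of G it was 5.43 for *Rprml*, 4.16 for *St6galnac5* and 3.79 for *Frrs1*. That of *Egflam* was 3.96 without mixed cells against 2.84.

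In the other direction, the 10 genes with the smallest ratios were *Aplnr*, *Ccl21a*, *Cyp26b1*, *Edn1*, *Esm1*, *Fam181b*, *Gpr182*, *Inhbb*, *Mcf2l* and *Sema3g*. *Edn1*, the ligand endothelin 1 whose receptor EDNRB marks aCap cells, stood at 12.7 CPM in aCap and 190 CPM in gCap cells of room air and at 18.5 and 190 CPM in hyperoxia. *Sema3g* stood at 31.6 and 335 CPM and at 20.4 and 253 CPM. *Inhbb* stood at 0 CPM in aCap and 28.9 CPM in gCap cells of room air and at 1.69 and 17.5 CPM in hyperoxia. The activin subunits were thus divided between the capillary cells of hyperoxia, where *Inhba* was higher in aCap cells. In room air *Inhba* was not shown to exceed the background in aCap cells. *Ccl21a*, a lymphatic chemokine gene with near-identical copies, was at 0 CPM in aCap and 0.481 CPM in gCap cells of room air, and its 59.3 CPM in gCap cells of hyperoxia against 1.04 CPM in aCap cells decided its place.

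**Figure D2:**
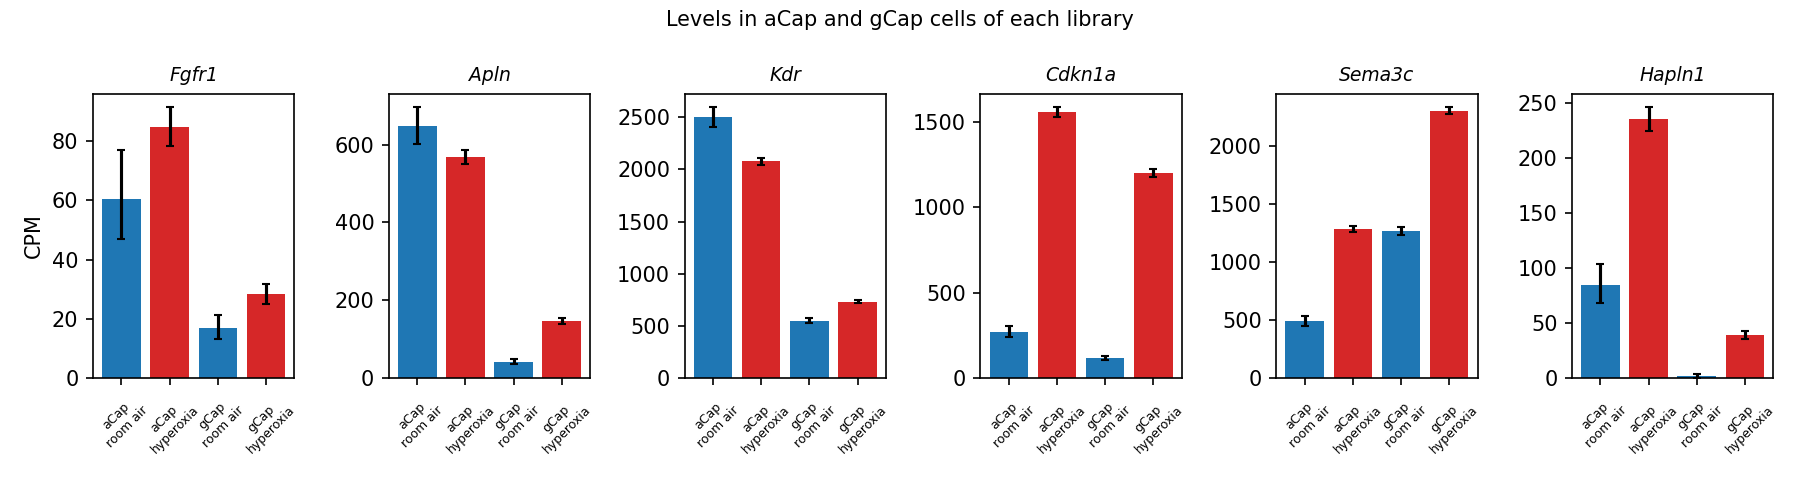
Bars give the level of 6 genes (CPM, y axis from 0) in aCap and gCap cells of room air (blue) and hyperoxia (red), with exact 95% Poisson intervals for counting error only. *Apln* and *Kdr* are slightly lower in hyperoxia in aCap cells and higher in gCap cells, and *Hapln1* is near 0 only in gCap cells of room air (1.68 CPM).

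Several aCap genes differed less between aCap and gCap cells in hyperoxia than in room air. *Hapln1*, which encodes a protein linking hyaluronan to proteoglycans, stood at 85.0 CPM in aCap and 1.68 CPM in gCap cells of room air and at 235 and 39.2 CPM in hyperoxia. Its log2 ratio between hyperoxia and room air was 1.47 in aCap and 4.54 in gCap cells, a difference of −3.07 between them, the most negative among the genes ranked. At 2000 UMIs per cell it was found in 1 of 503 gCap cells of room air (0.00503 to 1.10%) and 0 of 168 B cells (0 to 2.17%), so it was not shown to exceed the background there and the size of the difference is uncertain. With thinned barcodes the log2 ratio in aCap cells was 2.44. *Ankrd37*, a HIF target, stood at 97.6 and 14.7 CPM in room air and at 93.0 and 96.4 CPM in hyperoxia, so that it did not separate both cell types there. Its log2 ratio in aCap cells was −0.07, but 0.96 with thinned barcodes. *Lmo7* (185 and 11.3 CPM, then 205 and 67.4 CPM) and the sulfotransferase gene *Chst2* (190 and 8.42 CPM, then 178 and 37.4 CPM) stood at similar levels in aCap cells and were higher in gCap cells of hyperoxia. *Syn3*, with 2.17 and 55.5 CPM in gCap cells, completed these 5 genes. The median log2 ratio of the 12 aCap genes outside the rule was −0.23 in aCap and 1.05 in gCap cells, where the CD47 receptor gene *Sirpa* stood at 5.53 and 29.0 CPM, *Chst1* at 4.09 and 31.8 CPM and *Igfbp7* at 407 and 828 CPM. In aCap cells these 3 genes were lower in hyperoxia, *Sirpa* at 254 and 168 CPM and *Chst1* at 246 and 176 CPM. Of the gCap genes outside the rule 8 of 12 were measured in aCap cells, with 0 at least 2-fold higher and 1 (*Tek*) at least 2-fold lower. Over all genes 1.73% were at least 2-fold higher and 1.99% lower. The median of these 8 was −0.31. With thinned barcodes 3 of these 8 were at least 2-fold lower and the median was −0.84 (406 of 6471 genes higher and 216 lower in that setting), and without mixed cells 3 and −0.83 (165 and 155 of 6472). Among them *Cd93*, an endothelial adhesion receptor gene, stood at 278 and 541 CPM in aCap cells. The difference between the responses of aCap and gCap cells was not tested, and the rule's limit between A and G bears on it.

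The opposite pattern, a larger log2 ratio in aCap than in gCap cells, was found for the ubiquitin ligase gene *Neurl3* (25.3 and 75.6 CPM in aCap, 79.9 and 52.0 CPM in gCap cells), for *Nr1d2*, which encodes the clock repressor REV-ERB beta (27.1 and 48.8 CPM, 58.0 and 40.7 CPM), and for *Gm6483* (16.3 and 30.1 CPM, 33.9 and 21.4 CPM), which is annotated as a pseudogene, so that its UMIs may come from related copies. *H2-Q6* reached this group through gCap cells (248 and 59.0 CPM), with 34.3 and 32.5 CPM in aCap cells, and *Plat* was the fifth. With thinned barcodes the log2 ratio of *Gm6483* was 0.14 against 0.89.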

How the data were processed

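The authors used Cell Ranger to align the reads to mm10 and deposited counts of UMIs for each gene in each barcode called as a cell, whole numbers without normalization. The processing notes name Cell Ranger 2.1.1, the protocol 6.1.1 and the matrix headers software 3.1.0, and the labels and the methods differ on the version of the kit. These were not reconciled. Counts of 27998 genes were handled in pandas 2.3.3, scipy 1.17.1 and numpy 2.4.6 under Python 3.11.15, and plots drawn in matplotlib 3.10.9. UMIs were summed over the cells of a group and library and given as CPM. Intervals are at 95%, exact Poisson for CPM, Clopper-Pearson for shares and exact conditional for ratios, and for a difference between a pair of shares they combine the limits of both. Genes of the rule, mitochondrial genes, *Xist* and Y-linked genes did not enter the counts of genes past 2-fold, which were checked on simulated data. No doublet caller was run. Instead the cells with the most UMIs, or mixed cells, were left out in turn. Thinning drew UMIs without replacement (seed 1). Ratios with barcodes thinned before the rule rest on 130 aCap cells of room air at 2000 UMIs each. They are given without intervals, so those of scarce genes are uncertain. B cells had at least 3 UMIs of *Cd79a*, *Cd79b* and *Ms4a1*.

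Named genes were those of the rule, 6 genes chosen by name (*Fgfr1*, *Fgfr2*, *Apln*, *Aplnr*, *Kdr* and *Cdkn1a*), the 10 largest and 10 smallest ratios of hyperoxia over room air with a mean of at least 20 CPM, the 15 largest and 10 smallest ratios of aCap over gCap cells, the 5 largest and 5 smallest differences of the log2 ratios of aCap and gCap cells, and the members of 18 pathway lists with the largest ratios. Ratios of hyperoxia over room air were ranked among 4837 genes, without ribosomal protein and haemoglobin genes, whose level in the higher library was at least that of barcodes without endothelial UMIs. Other cells were followed with 13 marker lists. The members, the lists and the rule were chosen with earlier results of these data known. Gene positions are from GENCODE vM21 and promoter sequences from RefSeq, both on GRCm38.p6. Alternatives to these choices were computed for the aCap share, the counts of genes past 2-fold, *Fgfr1* and 109 values of single genes, and for the lists under 3 of the alternatives, while the other genes given were not recomputed one by one. Some of these genes are not reported here and are not marked in the plots.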

Additional observations from a re-analysis of the deposited data

Results flagged for a closer look

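Among the genes chosen by name, those with the largest and smallest ratios and those with the largest differences between aCap and gCap cells, 6 had a log2 ratio of hyperoxia over room air whose counting interval lay on one side of 0 in aCap cells and on the other side in gCap cells. Members of the lists that did so too, such as *Hpgd* and *Igfbp7*, are not counted here. The ratio in aCap cells was −0.19 for *Apln* (1.82 in gCap cells) and −0.27 for *Kdr* (0.41 in gCap cells). The value of *Apln* lay within the 25th and 75th percentiles of all genes in aCap cells (−0.23 and 0.26) and that of *Kdr* just below them. The ratio in aCap cells was −2.53 for *Ndufa4l2* against 0.81 in gCap cells, a value that rested on few barcodes. It was 1.58 for *Neurl3* (−0.62 in gCap cells), 0.85 for *Nr1d2* (−0.51) and 0.89 for the pseudogene *Gm6483* (−0.67). *Neurl3*, *Nr1d2* and *Gm6483* were named for their large differences between aCap and gCap cells, so their opposite directions follow in part from that choice. In aCap cells alone the interval lay above 0 for 1123 of all measured genes and below 0 for 1037. How many of all genes had opposite directions is not given, so the count of 6 shows no excess. With 1 library per group the difference between aCap and gCap cells was not tested for any of these genes.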

How the results depend on the processing

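The difference in the aCap share of ECs stayed positive under each alternative that gave a value, from 12.3 points with *Emp2* left out of A to 26.8 points with *Sema3c* left out of G. It was 25.2 points of capillary cells (aCap plus gCap) and 4.01 points of all kept barcodes. The number of genes at least 2-fold higher and lower in hyperoxia was 287 and 261 with barcodes thinned to 2000 UMIs, which left 130 and 777 aCap cells (406 and 216 over the genes measured without thinning), 181 and 195 with means over cells, 209 and 221 from 10 CPM, 57 and 58 from 50 CPM, and 3669 and 1677 with no minimum. Genes at least 2-fold higher in aCap than in gCap cells numbered 137 from 50 CPM and 659 with no minimum. A lower minimum admits genes with few UMIs in room air. Thinning leaves fewer UMIs of every gene too, and the part of this in its counts was not tested. The cause of the other differences was not tested either. *Fgfr1* stayed between 0.13 (*Sema3c* left out of G) and 0.66 (*Emp2* left out of A) on the log2 scale. Over single named genes, 1066 of 1197 values stayed within their counting interval, 130 moved beyond it and 1 that was past 2-fold reversed, *Bmp4* with thinned barcodes (1.01 against −1.43). Of the values under 2-fold, *Sod3* (0.45) changed sign beyond its interval with *Sema3c* left out of G (−0.87) and without mixed cells (−0.47), *Bambi* (0.52) as a mean over cells (−0.16) and *Ankrd37* (−0.07) with thinned barcodes (0.96). Leaving out every cell with a UMI of any of 9 genes of other lineages left 4 and 15 aCap cells and gave no value. Leaving *Sema3c* out of G and leaving out mixed cells were chosen after seeing the data. No paired analysis was possible because each group has 1 library. The 1106454 UMIs of the room air aCap cells limit the precision of every ratio, and the intervals hold no difference between mice.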
